A study of Mus musculus with 12 samples.

Results

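Immediate early genes were followed in RNA-seq of mouse intestinal stem cells (ISCs), the Lgr5-expressing cells at the crypt base that renew the gut lining. The 10 genes were picked by symbol (Fos, Fosb, Fosl2, Jun, Junb, Jund, Egr1, Atf3, Ier2 and Zfp36), and each matched 1 row of the 47729 genes in the count table. All 12 libraries came from Lgr5-EGFP-IRES-CreERT2 knock-in mice of 8 to 10 weeks, in which the Lgr5 locus drives EGFP, so that EGFP-high crypt cells could be sorted. The cells were EpCAM+ and negative for CD24, CD31, CD45 and TER119, and males and females were used without the sex of each library being given. The 4 groups held 3 libraries each. Ctrl mice were neither restrained nor injected, and by the study's restraint protocol they went without food and water for as long as the restrained mice. CRS mice were confined in a ventilated tube for 3 h on 1 day. Vehicle mice received 1 intraperitoneal injection of 20% sulfobutylether-β-cyclodextrin, and CORT mice the same solution with corticosterone, the main glucocorticoid of rodents, at 5 mg/kg. The library names CRS-1+2 and CRS-4+5+6 join several numbers, which may stand for pooled mice. The interval from exposure to cell collection is not given in the sources used here, and nothing in them says whether the injected and the uninjected mice were handled on the same days.

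Immediate early genes are transcribed within minutes of a stimulus from factors the cell already holds, mainly serum response factor and CREB acting below MAPK signalling, and their mRNAs are short-lived. Fos and Jun proteins pair to form AP-1, a transcription factor through which growth factor and stress signals reach their target genes in the gut epithelium as in other tissues. Glucocorticoid receptor bound to its hormone is known to interact with AP-1, and enzymatic dissociation of tissue is known to induce many immediate early genes together with heat shock genes.

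Positions are on mm10, the build of the deposited files. The Fos family holds Fos (chr12:85473890-85477273, plus strand), Fosb (chr7:19302696-19310051, minus strand) and Fosl2 (chr5:32135801-32157842, plus strand). The Jun family holds 3 genes of 1 exon each, Jun (chr4:95049034-95052222, minus strand), Junb (chr8:84976909-84978748, minus strand) and Jund (chr8:70697739-70700616, plus strand). Egr1, whose position is given with its values, encodes a zinc finger factor that binds GC-rich sites. Atf3 (chr1:191170296-191218039, minus strand) encodes a stress-induced bZIP factor. Ier2 (chr8:84661331-84662852, minus strand) has 1 exon and encodes a nuclear protein induced by growth factors. Zfp36 (chr7:28376784-28380253, minus strand) encodes tristetraprolin, which binds AU-rich elements and speeds the decay of short-lived mRNAs. The antisense gene Junos overlaps Jun and averaged 1.72 CPM, the estimated count scaled to library size, and the library protocol names no step that marks strand, so reads of the pair cannot be told apart.

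Promoter sequences from RefSeq (GRCm38.p6, the same build as mm10) were available for 8 of the 10 genes. They are shown for Fos, Fosb, Jun and Zfp36 because these are the genes with an entry that passed an adjusted p < 0.05 in Vehicle against Ctrl. Each is written 5′ to 3′ and runs toward the transcription start, with matches to 7 searched motifs in capitals. The stretches cover the 150 bases before the start for Fos (chr12:85473740-85473889, plus strand) and Jun (chr4:95052223-95052372, minus strand), 144 bases for Fosb (chr7:19310052-19310195, minus strand) and 30 bases for Zfp36 (chr7:28379267-28379296, minus strand). The Zfp36 stretch lies before the start that RefSeq gives, but inside the gene span given above, wholly within the first exon of the GENCODE M21 transcript, which starts farther upstream at 28380253.
Fos: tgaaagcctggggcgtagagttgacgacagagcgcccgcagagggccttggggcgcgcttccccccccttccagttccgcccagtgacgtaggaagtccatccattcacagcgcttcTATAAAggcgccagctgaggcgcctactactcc
Fosb: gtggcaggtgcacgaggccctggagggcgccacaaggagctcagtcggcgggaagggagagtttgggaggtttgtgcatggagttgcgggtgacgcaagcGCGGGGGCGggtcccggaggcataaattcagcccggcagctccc
Jun: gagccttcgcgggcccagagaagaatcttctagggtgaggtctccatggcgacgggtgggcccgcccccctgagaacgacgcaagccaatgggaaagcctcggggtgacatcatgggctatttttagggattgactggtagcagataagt
Zfp36: ccaggccgccCCATAAAAGGagaaagctcc
The capitals mark the TATA box (TATAAA) of Fos at -33 to -28, an EGR site (GCGNGGGCG) of Fosb at -50 to -42 and the CArG box of Zfp36, the serum response factor motif, at -58 to -49. Over the whole 250 bases before the start and on either strand, the CArG box was found in 1 of the 8 genes and in 1.47% of all 32851 promoters in the table. The EGR site was found in 3 of the 8 (Fosb, Fosl2 and Zfp36) against 4.70% of all promoters, and the TATA box in 1 against 12.4%. The ETS core CCGGAAG was found in 1 (Zfp36) against 6.91%, and the glucocorticoid receptor element, searched by name, in 1 (Jund) against 0.387%. None of the 8 held the complete CRE (TGACGTCA, 1.55% of all promoters) or the AP-1 site (TGANTCA, 6.75%) in this window. No motif match overlapped another.

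Depth ranged from 15934907 to 17135770 estimated counts in the Ctrl and CRS libraries, from 16465961 to 31280267 in Vehicle and from 29426183 to 69533214 in CORT. The sorted identity was checked with 6 ISC markers, whose summed level lay between 10678 and 13938 CPM in all 12 libraries. Olfm4 held most of this sum, and single markers were not steady. Ascl2 was at 138 to 148 CPM in Ctrl and at 53.8 to 69.0 CPM in CRS. In Vehicle it was at 149 to 171 CPM and in CORT at 59.3 to 108 CPM. Lgr5 was lower in CORT (128 to 159 CPM) than in Vehicle (194 to 210 CPM), and Olfm4 higher (7682 to 9105 against 6884 to 7632 CPM). Summed over 6 markers each, blood cells reached at most 6.61 CPM and stromal and endothelial cells at most 4.10 CPM. The CRS libraries stood apart in 6 enterocyte markers, with a summed level of 322 to 1685 CPM against 125 to 202 CPM in the other 9 libraries. All 7 glucocorticoid receptor targets of a list rose in CRS against Ctrl, beside 1.30% of all genes (adjusted p < 0.05 by edgeR). All 7 also rose in CORT against Vehicle, beside 3.64% of all genes. The list was chosen with earlier results of these data known, so it describes the response and is no independent check.

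On a scale per transcript length (FPKM), the 10 genes covered a wide range in the Ctrl cells. Ier2 was the most abundant, with 94.2, 93.8 and 109.8 FPKM in the 3 Ctrl libraries (mean 99.2 ± 9.15, SD, n = 3). Jund (67.6 ± 1.13 FPKM) and Jun (64.2 ± 6.28) came next, and their libraries overlapped. Fos (32.1 ± 13.4 FPKM), Zfp36 (22.0 ± 2.77) and Junb (21.5 ± 4.25) followed, each overlapping the next, and then Fosl2 (15.8 ± 0.29) and Egr1 (12.2 ± 5.99), which overlapped as well. Fosb (2.87 ± 1.89 FPKM) and Atf3 (1.81 ± 1.16) were lowest. Ier2 stayed highest in all 4 groups. Fos held the 4th place in Ctrl and CRS and the 7th in Vehicle and CORT, where its mean level was 3.37 ± 1.40 and 5.23 ± 1.73 FPKM.

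The members fell into genes that differed widely between the uninjected groups (Ctrl, CRS) and the injected groups (Vehicle, CORT), and genes that did not. Vehicle against Ctrl compares mice injected with the carrier alone with mice that were not injected. By the restraint protocol the Ctrl mice also went without food and water, which is not stated for Vehicle mice. The days of handling may differ too, and these differences cannot be told apart from the injection. All 10 genes had a negative log2 fold change in this comparison, beside 49.7% of the 13642 genes tested, and 5 of 10 were lower at an adjusted p < 0.05, beside 0.352% of all genes tested. With a change over 2-fold as well, 3 of 10 were lower (Fos, Fosb and Egr1), beside 0.132% of all genes. Fosb is in both counts although it passed the filter on low counts through the Ctrl libraries alone, and without it they are 4 and 2. No member was higher (0.447% of all genes). In these bulk libraries, fewer cells expressing a gene and less RNA per cell cannot be told apart.

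**Figure D1:**
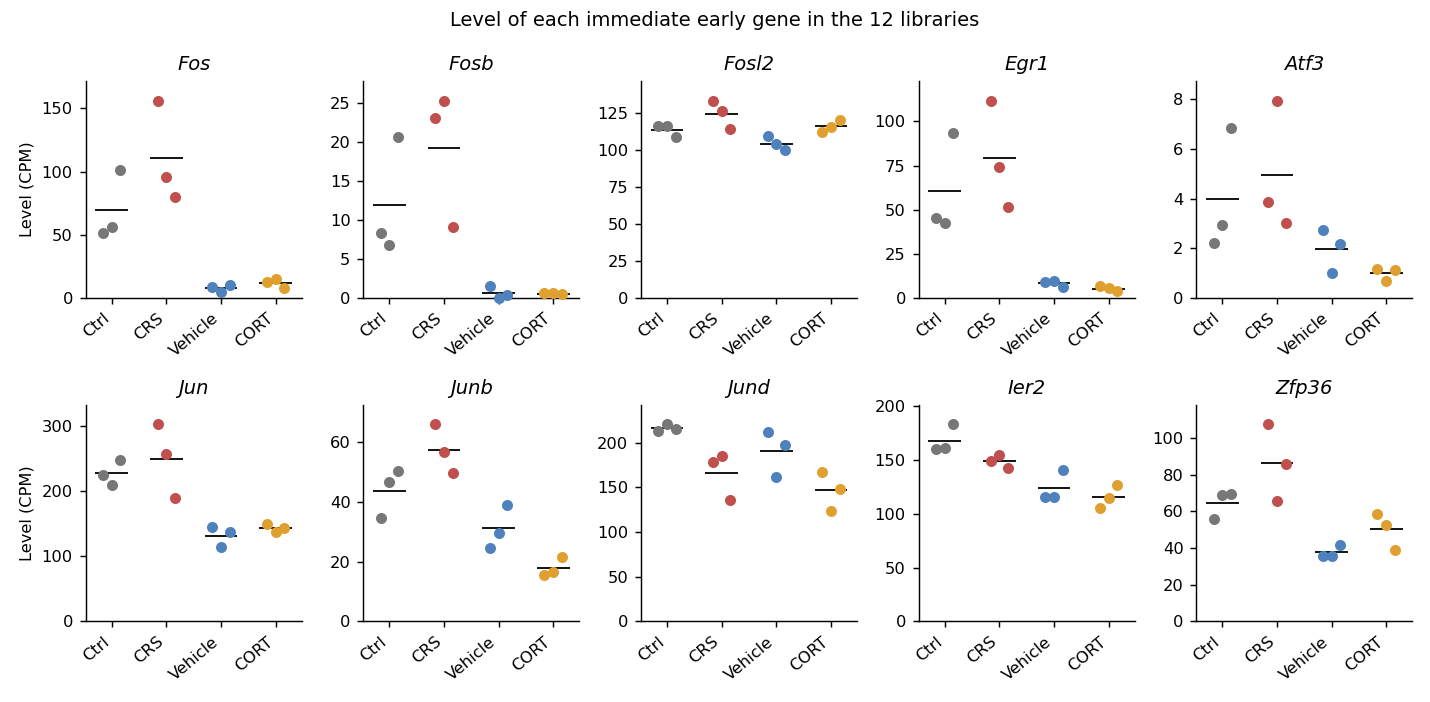
Level of the 10 genes in CPM (linear axes from 0) in each library, 3 points per group in the order of the library names, with a bar at the group mean. Fos, Fosb and Egr1 sit near the bottom of the axis in all 6 Vehicle and CORT libraries, while Fosl2 stays between 99.7 and 133 CPM in all 12.

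Fos, the inducible core subunit of AP-1, was at 51.1, 56.1 and 101 CPM in Ctrl and at 8.14, 4.25 and 10.4 CPM in Vehicle. All 3 Vehicle libraries lay far below the lowest Ctrl library. The log2 fold change was -3.16 (SE 0.32, 8.95-fold lower, adjusted p = 0.00155 by edgeR's quasi-likelihood test, n = 3 per group), the 6th smallest p of all genes tested. Egr1 (chr18:34859823-34864984, plus strand) showed the same pattern at a similar size, with 45.3, 42.5 and 93.6 CPM in Ctrl and 8.80, 9.31 and 6.25 CPM in Vehicle. Its log2 fold change was -2.91 (SE 0.30, 7.49-fold lower, adjusted p = 0.00155). In both genes the library Ctrl-3 was the highest of its group, and the other 2 Ctrl libraries lay close together.

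Fosb, a Fos relative that also pairs with Jun proteins, was nearly lost from the Vehicle libraries. It had 141, 114 and 339 estimated counts in Ctrl (8.25, 6.82 and 20.7 CPM) and 26, 0 and 10 in Vehicle. A level of 12 counts, which is what 3 read pairs can add, was the limit set for detection, so that only 1 Vehicle library was above it. The fitted log2 fold change was -4.32 (SE 0.77, adjusted p = 0.0297 by edgeR), the 2nd lowest of all genes tested, and its size depends on these few counts. The call was lost with DESeq2 (adjusted p = 0.0971) and without any 1 of the 3 Ctrl libraries or Vehicle-6 (adjusted p = 0.0528 to 0.150).

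Jun and Zfp36 were lower by a smaller factor. Jun, the main partner of Fos, was at 225, 210.2 and 248 CPM in Ctrl and at 145, 114 and 137 CPM in Vehicle, without overlap. Its log2 fold change was -0.78 (SE 0.10, 1.72-fold lower, adjusted p = 0.00661 by edgeR). Zfp36 was at 55.8, 68.8 and 69.7 CPM in Ctrl and at 35.9, 35.8 and 41.8 CPM in Vehicle. Its log2 fold change was -0.77 (SE 0.12, 1.70-fold lower, adjusted p = 0.0118 by edgeR). The call for Jun was lost without Ctrl-1 (adjusted p = 0.0620), and that for Zfp36 without Ctrl-2 (0.0603) or Ctrl-3 (0.0664). Zfp36 was also lost in the fit over all 12 libraries (0.0763) and with limma on log2(FPKM + 1) (0.0654).

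The other members did not pass the threshold in Vehicle against Ctrl. Ier2 was at 160.4, 160.5 and 183 CPM in Ctrl and 116, 116 and 140.3 CPM in Vehicle, with no overlap and a log2 fold change of -0.43 (SE 0.10, adjusted p = 0.0782 by edgeR and 0.00428 by DESeq2). Junb had a log2 fold change of -0.48 (SE 0.18, adjusted p = 0.320) and Atf3 of -1.01 (SE 0.51, adjusted p = 0.515), with overlapping groups in both. Jund (-0.18, SE 0.10) and Fosl2 (-0.12, SE 0.08) had the smallest values. Counted without a test, 7 of 10 members had every Vehicle library below every Ctrl library, beside 8.15% of all genes. Fosb, which passed the filter through the Ctrl libraries alone, is 1 of the 7. The median log2 fold change of the members was -0.78, beside 0.0019 for all genes tested.

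The 6 CRS and CORT libraries give another contrast of injected with uninjected mice, in libraries that the comparison above did not use. This comparison was added after the data were seen, and its groups also differ in the stimulus (hormone injection against restraint). The CRS mice went without food and water while restrained, which is not stated for CORT mice. The summed enterocyte markers were also higher in CRS (322 to 1685 CPM) than in CORT (125 to 191 CPM). The Paneth cell markers were higher too (169 to 263 against 104 to 116 CPM), and the part of these cells was not tested. In CORT against CRS, 6 of 10 members were lower at an adjusted p < 0.05, beside 0.905% of the 14360 genes tested, and 5 of 10 were lower by over 2-fold, beside 0.481%. Fosb is in both counts although it passed the filter on low counts through the CRS libraries alone. Without it, Fos, Junb, Egr1 and Atf3 were lower by over 2-fold, and Jun by less. Fos was at 156, 96.0 and 79.9 CPM in CRS and at 12.7, 14.9 and 7.98 CPM in CORT (log2 fold change -3.20, SE 0.30, adjusted p = 0.00352 by edgeR). Egr1 was at 112, 74.4 and 51.6 CPM in CRS and at 6.47, 5.37 and 3.72 CPM in CORT (-3.91, SE 0.31, adjusted p = 0.00172). Fosb was at 23.1, 25.3 and 9.06 CPM in CRS and at 0.63, 0.54 and 0.41 CPM in CORT (-5.14, SE 0.43, adjusted p = 0.00193). All 3 genes were separated without overlap, as they were between Vehicle and Ctrl.

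Junb (-1.68, SE 0.16, adjusted p = 0.00369 by edgeR), Jun (-0.80, SE 0.15, adjusted p = 0.0447) and Atf3 (-2.32, SE 0.45, adjusted p = 0.0475) were also lower in CORT than in CRS. Zfp36 had a log2 fold change of -0.78 (SE 0.20, adjusted p = 0.0913) and Ier2 of -0.36 (SE 0.08, adjusted p = 0.0790), each without overlap of the groups. DESeq2 called both (adjusted p = 0.00217 and 0.00961), and Zfp36 was also called in the fit over all 12 libraries (0.0235) and without CRS-3 (0.0259). Jund (-0.18) and Fosl2 (-0.10) again had the smallest values. In all, 8 of 10 members had every CORT library below every CRS library, beside 11.3% of all genes. Fosb, which passed the filter through the CRS libraries alone, is 1 of the 8. The call for Jun was lost without CRS-1+2, CORT-2, CORT-4 or CORT-5 (adjusted p = 0.118 to 0.185) and that for Atf3 without any 1 of the 6 (0.0512 to 0.185), whereas Fos, Fosb, Egr1 and Junb were called without any 1 of the 6.

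**Figure D2:**
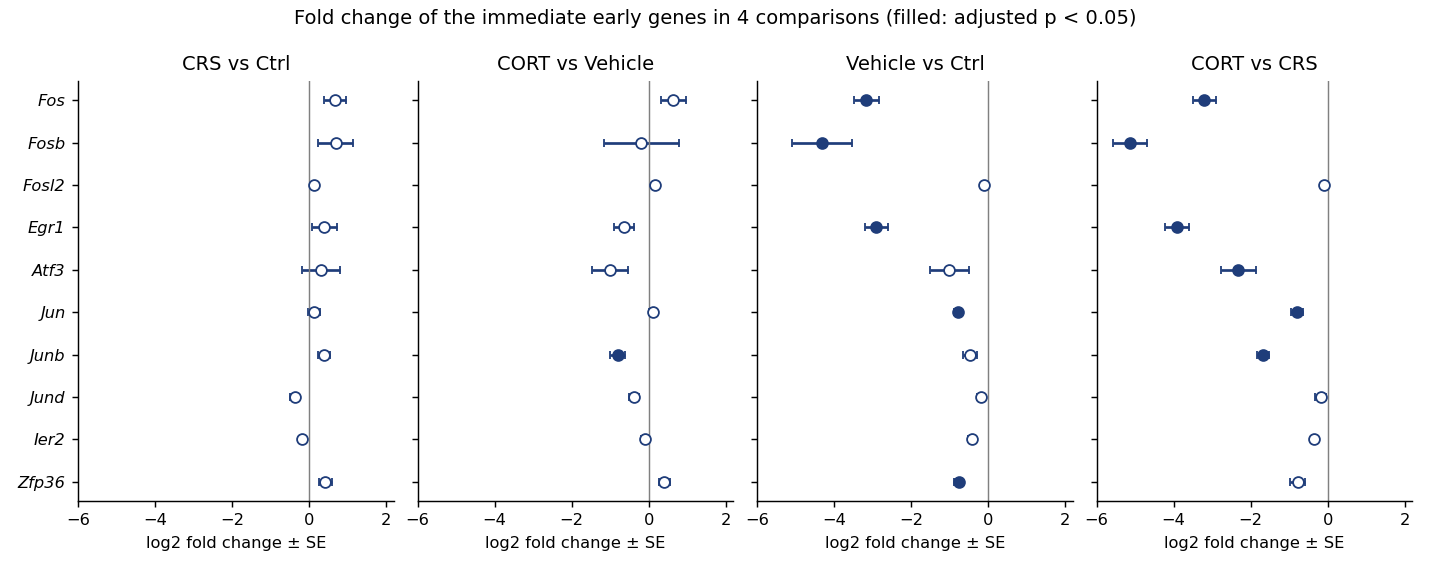
Log2 fold change (point) with its standard error (bar) for the 10 genes in 4 comparisons of 3 against 3 libraries, filled where the adjusted p was below 0.05. In Vehicle vs Ctrl and CORT vs CRS all 10 points lie below 0, with Fos at -3.16 and -3.20, whereas in CRS vs Ctrl no point is filled and in CORT vs Vehicle only that of Junb.

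Restraint was compared with Ctrl to ask how ISCs respond to 1 exposure to stress. No member passed an adjusted p < 0.05 in CRS against Ctrl, beside 1.89% of the 13722 genes tested in either direction. At an unadjusted p < 0.05 there were 4 (Fos, Junb and Zfp36 higher, Jund lower), beside 15.2% of all genes, and DESeq2 called 1 (Jund, adjusted p = 0.0277). Fos had a log2 fold change of 0.68 (SE 0.28, adjusted p = 0.291 by edgeR) between the Ctrl and the CRS levels given above, and the groups overlapped. Fosb (0.69, SE 0.45), Egr1 (0.39, SE 0.32) and Atf3 (0.31, SE 0.50) also had positive values within 2 standard errors of 0. The median over the members was 0.35, beside -0.0028 for all genes.

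Of the other members, Junb and Zfp36 had positive values of the same size as that of Egr1, and Jund a negative one. Junb was at 34.5, 46.8 and 50.4 CPM in Ctrl and at 66.1, 56.8 and 49.7 CPM in CRS (log2 fold change 0.39, SE 0.15, adjusted p = 0.260 by edgeR). Zfp36 was at 107, 65.9 and 86.1 CPM in CRS (0.42, SE 0.16, adjusted p = 0.256) and passed the threshold without CRS-3 (adjusted p = 0.0287). Jund, the Jun relative that is not strongly inducible, was at 214, 220.3 and 215 CPM in Ctrl and at 178, 185 and 136 CPM in CRS. It was lower without overlap (-0.38, SE 0.11, adjusted p = 0.139 by edgeR), and passed the threshold without CRS-3 (adjusted p = 0.0379). Ier2 was the other member without overlap, also lower in CRS (-0.17, SE 0.09, adjusted p = 0.392), so that 2 of 10 were separated, beside 20.4% of all genes in either direction. The library with the highest enterocyte markers, CRS-4+5+6, had the lowest level of the CRS group for Fos, Fosb, Egr1, Jun, Junb, Jund, Ier2, Atf3 and Fosl2, and the part of the admixture in these values was not tested.

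Corticosterone was compared with its carrier to ask what the hormone alone does. In CORT against Vehicle, 1 of 10 members was called, beside 8.13% of the 14656 genes tested in either direction and 4.50% lower. This was Junb, an AP-1 subunit that can restrain Jun, at 24.7, 29.8 and 39.0 CPM in Vehicle and at 15.6, 16.5 and 21.7 CPM in CORT. All 3 CORT libraries lay below the lowest Vehicle library, with a log2 fold change of -0.81 (SE 0.19, 1.75-fold lower, adjusted p = 0.0327 by edgeR). The call was lost when Vehicle-5, Vehicle-6, CORT-2 or CORT-4 was left out (adjusted p = 0.0766 to 0.134).

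No other member passed the threshold in CORT against Vehicle by edgeR on all 6 libraries. DESeq2 also called Jund lower (adjusted p = 0.0235), and Zfp36 passed without CORT-5 (adjusted p = 0.0341 by edgeR). Fos had a log2 fold change of 0.64 (SE 0.33, adjusted p = 0.284) with overlapping groups, both far below the uninjected libraries. Egr1 (-0.64, SE 0.25, adjusted p = 0.170), Atf3 (-1.002, SE 0.48, adjusted p = 0.244) and Jund (-0.38, SE 0.13, adjusted p = 0.117) had negative values, and Zfp36 a positive one (0.40, SE 0.15, adjusted p = 0.134). Fosb stayed near the detection limit in both groups, with 42, 32 and 12 estimated counts in CORT. Fosl2 was at 109, 104 and 99.7 CPM in Vehicle and at 112, 116 and 120.0 CPM in CORT, higher without overlap by a log2 fold change of 0.15 (SE 0.07, adjusted p = 0.240). It and Junb were the only members without overlap, 2 of 10 beside 28.7% of all genes. The median over the members was -0.15, beside 0.014 for all genes.

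The difference between the responses to restraint and to corticosterone was tested in 1 model over all 12 libraries. None of the 10 members passed an adjusted p < 0.05 in edgeR, beside 0.388% of the 14415 genes tested. At an unadjusted p < 0.05 there was 1, Junb, beside 12.5% of all genes, and DESeq2 called the same gene. Its log2 fold changes had opposite signs, that in CRS not past the threshold, and the difference was 1.20 on the log2 scale (SE 0.27, adjusted p = 0.0751 by edgeR).

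Genes of the same kind were described from lists. Of 34 other early response genes, 30 were tested in Vehicle against Ctrl, where 3 were lower, beside 0.352% of all genes, and none higher. These were Cyr61, a matrix-associated growth regulator (log2 fold change -1.33, SE 0.23, adjusted p = 0.0218 by edgeR), the antiproliferative gene Btg1 (-0.53, SE 0.10, adjusted p = 0.0360) and the pseudokinase gene Trib1 (-0.51, SE 0.10, adjusted p = 0.0374). The median of this list was -0.18. In CORT against CRS, 3 of 30 were lower, beside 0.905% of all genes, among them the orphan nuclear receptor gene Nr4a1 (-3.05, SE 0.42, adjusted p = 0.0177), which was at 8.46, 7.95 and 3.35 CPM in CRS and at 0.88, 0.61 and 0.89 CPM in CORT. Cyr61 (-2.18, SE 0.35, adjusted p = 0.0323) and Klf6 (-0.62, SE 0.09, adjusted p = 0.0248) were the others. These list calls rest on few libraries: in Vehicle against Ctrl each of the 3 was lost without Ctrl-1, Vehicle-5 or Vehicle-6, among others (adjusted p up to 0.232), and in CORT against CRS each was lost without CRS-1+2, CORT-2, CORT-4 or CORT-5 (up to 0.149).

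Dusp1, the phosphatase gene that switches off MAPKs and is induced both by them and by glucocorticoid, followed Fos and Egr1. It was at 6.84, 6.94 and 19.0 CPM in Ctrl, 21.6, 16.7 and 9.99 CPM in CRS, 0.59, 0.23 and 1.65 CPM in Vehicle and 2.36, 2.52 and 2.44 CPM in CORT. Its log2 fold change was -3.60 (SE 0.59, adjusted p = 0.0196 by edgeR) in Vehicle against Ctrl and -2.72 (SE 0.29, adjusted p = 0.00676) in CORT against CRS. In Vehicle-3 and Vehicle-5 Dusp1 lay below the detection limit of 12 counts (0.73 and 0.71 CPM). Like Fosb, it passed the filter in Vehicle against Ctrl through the Ctrl libraries alone, and the size of -3.60 depends on few counts. Among the 9 early genes that are also known glucocorticoid receptor targets, Dusp1 was the only 1 called in CORT against CRS (0.905% of all genes lower), and Dusp1 and Sgk1 were the 2 called in Vehicle against Ctrl (0.352% lower). Sgk1, a kinase gene that the receptor induces, was lower in Vehicle than in Ctrl (-1.25, SE 0.21, adjusted p = 0.0206). Against its own controls it was higher by 3.60 in CRS and by 5.80 in CORT on the log2 scale (adjusted p = 6.65e-05 and 0.000715). The receptor target Fkbp5 was higher in Vehicle than in Ctrl by 1.42 on the log2 scale (SE 0.12, adjusted p = 0.00040), opposite in direction to the 5 members called there, and it was called without any 1 of the 6 libraries. In Vehicle against Ctrl, Dusp1 lost its call without Ctrl-1 or Ctrl-3 (adjusted p up to 0.0850) and Sgk1 without Ctrl-1, Ctrl-2 or Vehicle-6 (up to 0.0897). In CORT against CRS, Dusp1 lost its call without CORT-4 (0.0641).

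**Figure D3:**
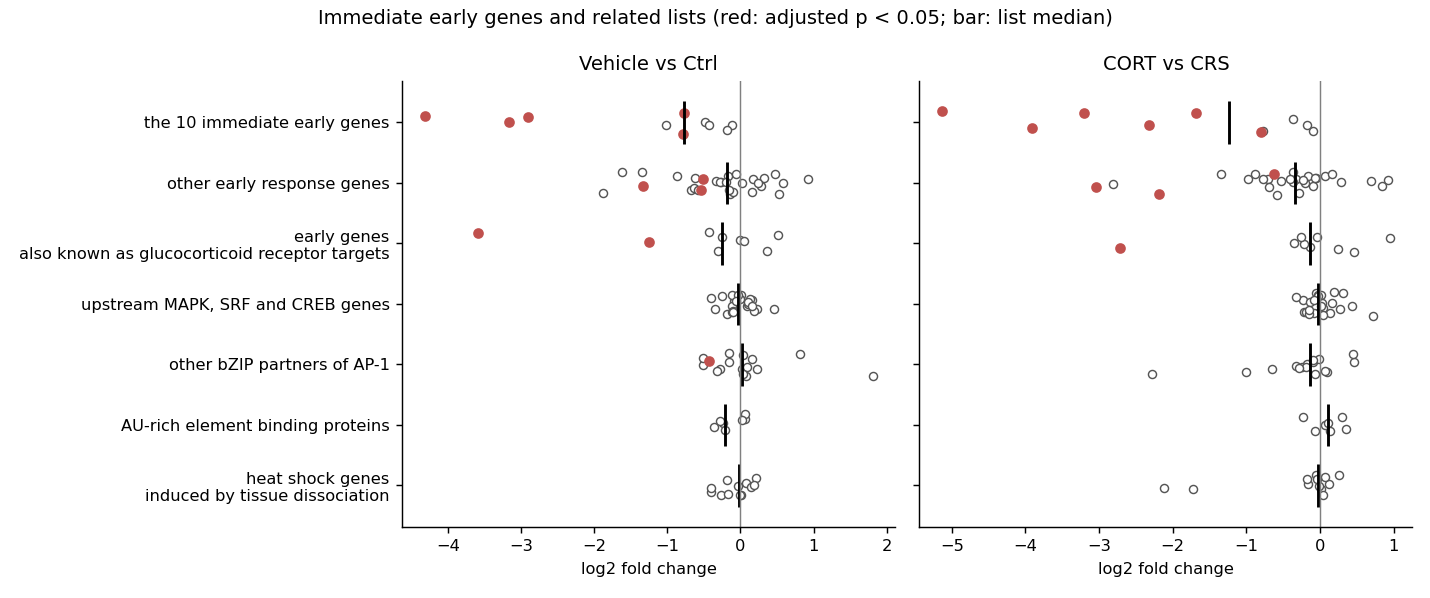
Log2 fold changes of the 10 genes and of 6 lists of related genes in Vehicle vs Ctrl and CORT vs CRS, 1 point per gene tested (vertical position within a list is arbitrary), red where the adjusted p was below 0.05, with a bar at the list median. The medians of the 10 genes are -0.78 and -1.24, and those of the 27 upstream genes are -0.036 and -0.032.

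None of 27 genes of the pathways upstream (MAPK, serum response factor and CREB genes) was called in Vehicle against Ctrl or in CORT against CRS, with medians of -0.036 and -0.032. Of 16 tested bZIP genes that can pair with AP-1 subunits, 1 was lower in Vehicle than in Ctrl, beside 0.352% of all genes (Bach1, -0.43, SE 0.08, adjusted p = 0.0330 by edgeR) and none was called in CORT against CRS. Bach1 lost its call without any 1 of the 6 libraries (adjusted p up to 0.210). None of 7 genes for AU-rich element binding proteins was called in either comparison. The list of heat shock genes known from tissue dissociation gave 0 of 12 called in both, with 5 higher and 7 lower in each, without a test. Its summed level was 9186 to 9494 CPM in Ctrl, 9181 to 10525 in Vehicle, 8840 to 10909 in CRS and 9070 to 10964 in CORT. Hspa1a and Hspa1b hold little of this sum. Both were lower in every CORT than in any CRS library (11.3% of all genes). Hspa1b was at 0.76 to 1.34 against 2.66 to 4.12 CPM, and Hspa1a at 0.07 to 0.55 against 1.21 to 1.58 CPM. Between Vehicle and Ctrl both overlapped. The part of dissociation was not tested.

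In the 2 treatment comparisons the lists moved in a mixed way. Of 31 other early response genes tested in CRS against Ctrl, 2 rose and 3 fell, beside 1.30% and 0.590% of all genes. The antiproliferative gene Btg2 (log2 fold change 0.82, adjusted p = 0.00842 by edgeR) and Klf6 (0.66, adjusted p = 0.0332) were higher, and Plk2 (-1.45, adjusted p = 0.0324), Phlda1 (-0.51, adjusted p = 0.0403) and Myc (-0.47, adjusted p = 0.0332) were lower. In CORT against Vehicle, 3 of 29 rose (Btg1, Btg2 and Klf6) and 7 fell, beside 3.64% and 4.50% of all genes. The gene for serum response factor itself, Srf, was at 78.2, 93.9 and 76.2 CPM in Vehicle and at 55.6, 54.2 and 59.9 CPM in CORT (-0.55, SE 0.10, adjusted p = 0.00886). The STAT inhibitor gene Socs3 (-2.06, SE 0.47, adjusted p = 0.0285), Ier5l (-1.71, SE 0.34, adjusted p = 0.0170) and the TGF-β induced gene Klf10 (-1.12, SE 0.21, adjusted p = 0.0139) fell as well. Cyr61, Klf4 and Phlda1 were the others that fell. Btg1, Btg2, Klf6 and Srf were called in CORT against Vehicle without any 1 of the 6 libraries. The other 6 were lost without at least 1, Klf10 without Vehicle-6 (adjusted p = 0.0539), Ier5l without Vehicle-5 or CORT-4 (up to 0.0777), and Klf4 without any (up to 0.0993). In CRS against Ctrl, Btg2 was lost without Ctrl-1 or Ctrl-3 (up to 0.0674), and Klf6, Plk2, Phlda1 and Myc without any 1 library other than CRS-3 (up to 0.199).

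The counts of the remaining lists stand beside 1.30% of all genes higher and 0.590% lower in CRS against Ctrl, and 3.64% higher and 4.50% lower in CORT against Vehicle. Of the 9 early genes that are also receptor targets, 3 rose in CRS against Ctrl (Sgk1, Per1 and Errfi1), and in CORT against Vehicle the same 3 rose and 1 fell. Errfi1, a feedback inhibitor of the EGF receptor, rose in CRS (1.16, SE 0.17, adjusted p = 0.0115 by edgeR) and in CORT (1.33, SE 0.22, adjusted p = 0.00645), and Per1 is a clock gene. Cebpb, the gene of a bZIP factor, fell in CORT (-1.01, SE 0.13, adjusted p = 0.00232). Of the 27 upstream genes, 1 rose in CRS, and 2 rose and 3 fell in CORT. The SRF coactivator gene Mkl2 rose in both (0.45 and 0.47, adjusted p = 0.0266 and 0.0119), and in CORT the kinase gene Rps6ka5 rose as well, while Rps6ka1 (-0.39, SE 0.07, adjusted p = 0.00886) and Rps6ka4 were among those that fell. Of 7 AU-rich element binding genes, 1 fell in each treatment, Zfp36l2 in CRS and Elavl1 in CORT (-0.34, adjusted p = 0.0350). Zfp36l2, a relative of Zfp36, had a log2 fold change of -0.49 in CRS (SE 0.08, adjusted p = 0.0166), and its responses to restraint and to corticosterone differed (-0.54, SE 0.11, adjusted p = 0.0487). Of 16 bZIP genes, 1 rose in CRS, and in CORT 1 rose (Bach1, 0.82, adjusted p = 0.000258) and 2 fell (Nfe2l2, -0.54, adjusted p = 0.00556, and Jdp2, -1.96, adjusted p = 0.0211). The 1 in CRS was Maf, higher by a log2 fold change of 2.49 (SE 0.47, adjusted p = 0.0282), with 25.1, 8.19 and 40.7 CPM against 4.39, 4.78 and 4.02 CPM in Ctrl. Its CRS libraries ranked in the same order as their enterocyte markers, and the part of the admixture was not tested. No heat shock gene was called in CRS, and 4 of 12 fell in CORT against Vehicle (Hspa1b, Dnaja1, Dnajb1 and Hspa1a), of which Hspa1b (-2.23, SE 0.40, adjusted p = 0.0103) and Hspa1a (-2.71, SE 0.71, adjusted p = 0.0499) fell most. Hspa1a was at 0.40, 0.07 and 0.55 CPM in CORT. It lay below 12 counts (0.20 CPM) in CORT-4, so the size of its change depends on few counts. Across these lists, Sgk1, Per1, Errfi1, Cebpb, Bach1 and Nfe2l2 were called in CORT without any 1 of the 6 libraries, and Sgk1 and Per1 in CRS likewise. In CRS, Errfi1 was lost without Ctrl-2 or CRS-1+2 (adjusted p up to 0.0624), Mkl2 and Maf without any 1 library other than CRS-3 (up to 0.153), and Zfp36l2 without any Ctrl library or CRS-4+5+6 (up to 0.0860). In CORT, Hspa1b and Mkl2 were lost without CORT-4 (0.0509 and 0.0606), Rps6ka1 without CORT-4 or CORT-5 (up to 0.0541), and Jdp2, Elavl1, Hspa1a, Dnaja1, Dnajb1, Rps6ka4 and Rps6ka5 each without 3 to 5 of the libraries (up to 0.155). The difference for Zfp36l2 was called in 1 of the 12 fits that leave out a library.

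Markers of other cell types differed between the groups in several ways. The summed level of 6 enteroendocrine markers was 31.2 to 64.1 CPM in Ctrl, 28.3 to 50.3 CPM in CRS, 14.3 to 33.2 CPM in Vehicle and 9.40 to 25.97 CPM in CORT. The Ctrl and Vehicle ranges overlapped. The sum of 6 goblet cell markers was 521 to 666 CPM in Ctrl and 501 to 1352 CPM in CRS. In Vehicle the goblet sum was 444 to 639 CPM and in CORT 411 to 755 CPM. The sum of 6 tuft cell markers was 10.9 to 13.4 CPM in Ctrl and lower in every library of the other groups, at 4.91 to 9.76 CPM in CRS, 6.60 to 8.21 CPM in Vehicle and 4.06 to 7.11 CPM in CORT, with Il25 at 0 in all 12 libraries. The sum of 6 Paneth cell markers was 136 to 173 CPM in Ctrl, 169 to 263 CPM in CRS, 186 to 211 CPM in Vehicle and 104 to 116 CPM in CORT. The higher sum in Vehicle came from Mmp7 alone, at 25.7, 24.04 and 16.5 CPM in Ctrl and 79.2, 92.6 and 100.004 CPM in Vehicle, while Itln1 was lower in every Vehicle library than in any Ctrl library and the means of the other 4 markers were lower too. The part of these cells in the levels of the members was not tested. The blood markers reached 6.61 CPM in Ctrl and 2.44 CPM in Vehicle, with Ptprc, Hba-a1 and Lyz2 at 0 in all 6 libraries.

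Within the groups, the members differed in how far replicate libraries lay apart. The SD of the log2 level within groups was 1.26 for Fosb, 0.69 for Atf3, 0.54 for Fos and 0.49 for Egr1, beside a median of 0.19 over the 14415 genes tested. It was 0.12 for Ier2 and 0.08 for Fosl2, the steadiest member. The value for Fosb came mostly from the Vehicle libraries, at 26, 0 and 10 estimated counts, around the detection limit. The highest of the Ctrl libraries was Ctrl-3 for 8 of the 10 genes, the exceptions being Fosl2 and Jund. The lowest of the CRS libraries was CRS-4+5+6 for 9, with Zfp36 as the exception.

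**Figure D4:**
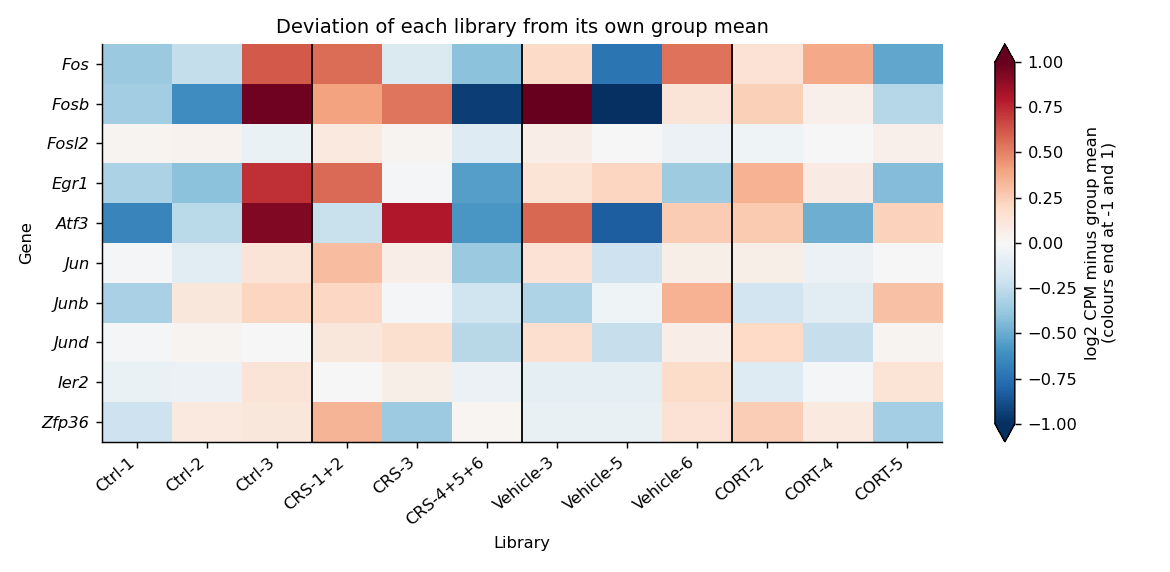
Log2 CPM of each gene in each library minus the mean of its own group, from blue (below) to red (above), with vertical lines between the groups and colours that end at -1 and 1. Fos, Fosb, Egr1 and Atf3 are red together in Ctrl-3 and blue together in CRS-4+5+6.

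Across the 12 libraries, after the group means were taken off, the closest pairs were Junb and Ier2 (Pearson's r = 0.81), Jun and Jund (0.77), Fosb and Atf3 (0.76), and Fosb and Jun (0.72). Fosl2 had an r of -0.01 with Fos. These values are a description over 12 libraries that share depth, sort and handling within a library. Those of Fosb rest largely on Vehicle-3 and Vehicle-5, at 26 and 0 estimated counts, where its deviations were 2.15 and -2.28. Over 9549 genes with a mean of at least 10 CPM, those whose deviations were most like those of Fos included Atpaf1 (r = 0.94), Dnajc19 (0.91), 9130230L23Rik (0.90) and Tnk2 (0.87), all outside the lists above. Those most like the mean of the members were Gm2260 (0.95), Rbm34 (0.90), Srebf1 (0.90), Tmem102 (0.87) and Npat (0.86).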

How the data were processed

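RNA of sorted Lgr5-EGFP-high cells was sequenced as 150 bp pairs. Per the labels, HISAT2 2.2.1 and StringTie 2.2.1 were run on mm10, whereas the study's methods name another HISAT2 version with featureCounts and DESeq2. The deposited table holds estimated counts (1 count per 75 covered bases, checked in Jun, Jund and Ier2), so a read pair adds up to 4 counts, and the authors also deposited FPKM, TPM and coverage values per library, of which FPKM gives the levels between genes and coverage the check of the count unit. Counts were scaled by TMM and tested with edgeR 4.0.16 (quasi-likelihood F-test, filterByExpr, 3 against 3 libraries, Benjamini-Hochberg over all genes tested), on R 4.3.3. All 10 members passed the filter in every comparison. SE is the log2 fold change divided by the root of F. CPM used TMM factors over 12 libraries. Alternatives were DESeq2 1.42.0, its size factors, other filters, limma 3.58.1 on log2(FPKM + 1) and log2(FPKM + 0.1), counts thinned to the smallest library, 1 fit over 12 libraries, and each library left out. The script was tested on simulated data. Members and lists were chosen with earlier results of these data known. Named genes are all members and, of each list, up to 5 genes per comparison past the threshold by smallest adjusted p. Ier5l, Cyr61, Socs3, Klf4 and Phlda1 in CORT against Vehicle were named after their values were seen. A few genes are not reported here. Labels do not say which libraries are separate animals, so p-values measure the spread between these libraries.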

Additional observations from a re-analysis of the deposited data

Results flagged for a closer look

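Junb was picked out because its libraries lay on opposite sides of their control means in the 2 treatments. All 3 CRS libraries were above the Ctrl mean of 43.9 CPM, and all 3 CORT libraries were below the Vehicle mean of 31.2 CPM. The difference of the 2 responses was 1.20 on the log2 scale (SE 0.27), with an adjusted p = 0.0751 by edgeR's quasi-likelihood test over all 12 libraries. DESeq2 gave an adjusted p = 0.00178 for the same difference. The difference was past the threshold in 2 of 20 alternatives, with DESeq2 and without Vehicle-3. Junb did not pass in CRS against Ctrl (adjusted p = 0.260 by edgeR), where the lowest CRS library, at 49.7 CPM, lay below the highest Ctrl library, at 50.4 CPM. At an unadjusted p < 0.05 for the difference it was 1 of 10 members, beside 12.5% of all genes.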

How the results depend on the processing

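In CRS against Ctrl, no member was called lower by edgeR and 1 by DESeq2 (Jund), and leaving out 1 library gave 0 to 1 higher and 0 to 1 lower. In CORT against Vehicle, DESeq2 gave 2 lower (Junb and Jund) in place of 1, and limma without a filter 0. Leaving out 1 library there gave 0 to 1 higher and 0 to 1 lower. In Vehicle against Ctrl, limma on log2(FPKM + 1) and log2(FPKM + 0.1) gave 3 lower (Fos, Jun and Egr1) in place of 5, limma without a filter gave 0, also with a change over 2-fold, and leaving out 1 library gave 3 to 5. In CORT against CRS, 6 lower became 8 with DESeq2 and 4 with limma on either FPKM scale. By over 2-fold, 5 were lower in CORT against CRS where Vehicle against Ctrl had 3, and limma without a filter gave 0 there. For the difference between the responses, DESeq2 gave 1 member (Junb), and leaving out 1 library 0 to 1. The cause of these changes was not tested.

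In the comparisons of 3 against 3 libraries, 3 log2 fold changes turned sign, none of them past the threshold. For the difference between the responses, the sign was followed for Junb only, and it did not turn. Jun in CRS against Ctrl was -0.029 without CRS-1+2 (up to 0.30 without another library). Atf3 in CRS against Ctrl was -0.22 without CRS-3 (up to 0.94). Fosb in CORT against Vehicle was 0.13 with log2(FPKM + 0.1) and lay between -0.77 and 1.51 when 1 library was left out, with 1.51 without Vehicle-3. No paired analysis was possible because the groups compared share fewer than 2 library numbers. Depth limits Fosb, which was at or below 12 counts in 2 of the 3 Vehicle libraries, and all 3 CORT libraries were deeper than those of Ctrl and CRS.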
